A study of Mus musculus with 9 samples.

Results

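Sox2 binding near 10 genes of the Notch pathway was examined in lung epithelial cells of C57BL/6 mice, 8 weeks of age, by chromatin immunoprecipitation and sequencing (ChIP-seq, which reads the DNA held by a protein). The genes were the ligands Dll1, Jag1 and Jag2, the receptors Notch1, Notch2 and Notch3, the receptor-modifying enzyme Lfng, the co-activator Maml2, and the target genes Hes1 and Nrarp, 10 of 21887 protein-coding genes. They were taken from a list, and a gene was counted when a summit, the highest point of a listed binding region, lay inside its mm10 RefSeq span or within 50 kb of it. The libraries came from cells with ectopic expression of Sox2 and deletion of Nkx2-1 (called Nkx2-1 deletion here), from cells with ectopic expression of Sox2 and no stated deletion (ectopic Sox2), and from wildtype cells. The series holds 1 Sox2 ChIP, 1 input and 1 IgG library for each condition, and a peak list was used for the Sox2 ChIP libraries alone. The promoter or Cre line behind the ectopic Sox2 and the deletion, and any pooling of animals, were not stated in the labels. Peak lists carry no expression, so the cell type, the ectopic Sox2 and the deletion could not be checked against marker genes.

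Notch signalling passes between touching cells. A ligand of the Delta-like or Jagged family on one cell opens a Notch receptor on its neighbour, gamma-secretase frees the receptor's intracellular part, and that part joins the DNA-binding factor Rbpj and a Mastermind-like co-activator at target genes. In the airway the pathway is known for setting the balance of secretory and ciliated cells, and Sox2 is the transcription factor that marks the same proximal airway, while Nkx2-1 sets lung identity.

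The Nkx2-1 deletion list held 2589 summits, the ectopic Sox2 list 229 and the wildtype list 552. The mean ChIP coverage recovered from the listed values was 1.45 fragments per position with Nkx2-1 deletion, 0.763 under ectopic Sox2 and 0.964 in wildtype. Each condition has 1 library, so differences between conditions have no check by replicates and were not tested. All intervals are 95% intervals for counting error alone, and reads without molecular identifiers are not independent molecules.

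The only binding listed within 1 kb of a transcription start of any of these genes, in any of the 3 lists, was at Nrarp, which encodes a small ankyrin-repeat protein induced by Notch that feeds back to limit the signal. All 3 libraries had a summit there, while 0.377% of protein-coding genes with a listed start had one this close with Nkx2-1 deletion, 0.183% under ectopic Sox2 and 0.114% in wildtype. The 250 bases before the Nrarp start, from RefSeq on GRCm38.p6 (the same build as mm10), are shown because every listed Nrarp summit lay within them, at chr2:25180508-25180757 on the plus strand. Capitals mark the 29 bases from the most upstream summit (wildtype, 68 bp before the start) to the most downstream (Nkx2-1 deletion, 40 bp before the start).
Nrarp promoter: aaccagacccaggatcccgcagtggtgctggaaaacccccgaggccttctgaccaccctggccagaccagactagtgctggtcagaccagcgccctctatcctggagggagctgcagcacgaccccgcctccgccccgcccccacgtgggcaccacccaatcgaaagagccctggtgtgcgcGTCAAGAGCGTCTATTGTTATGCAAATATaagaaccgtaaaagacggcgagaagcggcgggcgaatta

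The capitals hold a Sox element and an octamer element with 1 base between them, ATTGTTATGCAAA, from 55 to 43 bp before the start. This arrangement is known from pluripotent stem cells, where Sox2 binds it together with an octamer-binding POU factor. The centre of the match lay 9 bp from the Nkx2-1 deletion summit, 15 bp from the ectopic Sox2 summit and 19 bp from the wildtype summit. The capitals were set by the summits, so any match inside them lies close to all of these. The motif was searched as ATTGTNATGCAAA on both strands, after the Nrarp promoter had been read. The Nrarp match was therefore fixed in advance, and the counts that follow describe the sequence alone. Whether Sox2 binds at this motif was not tested. Of 32851 RefSeq promoter windows (250 bases before to 50 after a start), 8 held it, which is 0.0244%. Among the 17492 protein-coding genes with a window, 4 held it, and Nrarp was the only member of the 9 with a window. The separate elements were found more often: 31.0% of windows held ATTGT and 4.63% held ATGCAAA. Over the 250 printed bases, G and C made up 61.2%, against a median of 52.4% over all windows, and CG occurred 18 times, against a median of 6. The share of windows with a lower value was 74.8% for G and C and 78.3% for CG.

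Another 4 motifs were searched in the windows of the 9 genes, which have 11 windows in all. The Nrarp window held no match to ACAATG or ACAAAG (Sox family), CAAGTG (Nkx2 family) or GTGGGAA (Rbpj), on either strand. ACAATG, which contains the reverse complement of ATTGT, was in windows of Dll1 and Jag1 and in 12.6% of all windows. ACAAAG was in windows of Dll1, Lfng and Maml2 and in 18.7% of all. GTGGGAA was in that of Lfng, 109 bp before the start, and in 6.38% of all. CAAGTG was in none of the 11 and in 13.6% of all. These matches are descriptions of the sequence: apart from Nrarp, none of these windows held a listed summit.

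With Nkx2-1 deletion 5 of the 10 genes had a summit within 50 kb (Nrarp, Lfng, Maml2, Dll1 and Hes1), where 13.1% of all protein-coding genes did. With ectopic Sox2 3 of 10 had one (Nrarp, Dll1 and Notch2), against 1.53% of all genes, and in wildtype 1 of 10 (Nrarp), against 2.85%. The members were chosen with earlier results of these lists known, so the excess over these shares is no independent evidence about the pathway. The share rose with gene length: of genes of 50 to 500 kb, which include Maml2 and Notch2, 22.2% had a summit with Nkx2-1 deletion, and of those up to 10 kb, which include Nrarp, Lfng, Dll1 and Hes1, 7.70%. The 5 Nkx2-1 deletion genes rested on 8 summits in 7 regions, the 3 ectopic Sox2 genes on 3 summits, and the wildtype gene on 1. No member summit was counted for a second member.

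**Figure D1:**
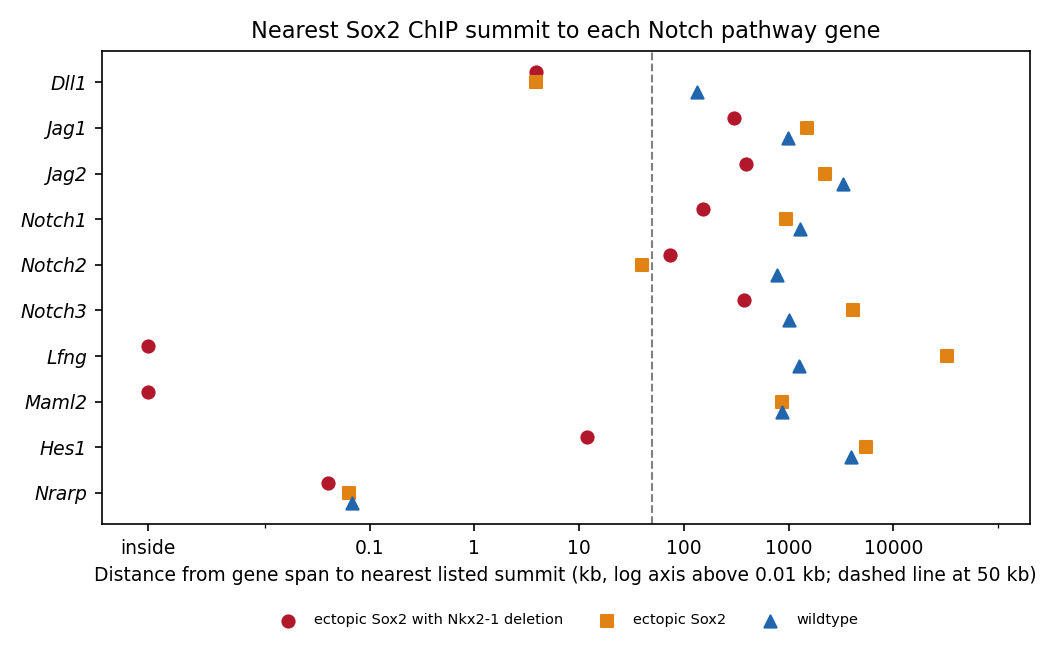
Distance in kb (horizontal, log axis above 0.01 kb, with "inside" for a summit within the gene) from each of the 10 genes to its nearest listed summit, by library. Nrarp is left of the 50 kb line in all 3 libraries, and Jag1, Jag2, Notch1 and Notch3 are right of it in all 3.

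Among the ligands, Dll1, a Delta-like ligand, had a region upstream of the gene in 2 of the 3 lists. The Nkx2-1 deletion summit lay 3883 bp before the start, at chr17:15380700-15380922, and rested on 43 ChIP fragments (interval 31.1 to 57.9). The ectopic Sox2 summit lay 3920 bp before the start, at chr17:15380613-15380886, and rested on 20 fragments (12.2 to 30.9). The regions overlapped, and the summits were 37 bp apart. The authors' fold enrichment, each within its own list, was 6.40 with Nkx2-1 deletion and 4.59 with ectopic Sox2, and −log10 q was 7.80 and ranked 806 of 2589 with Nkx2-1 deletion, and 2.25 and ranked 217 of 229 with ectopic Sox2. Scaled by depth, the fragment ratio of Nkx2-1 deletion over ectopic Sox2 was 1.13 (0.650 to 2.03), and 0.858 when scaled by the median ratio of the regions found in all 3 lists, which turns the direction. The depth-scaled interval includes 1, so the Dll1 fragments of the 2 libraries differed by no more than counting error allows. The ranks are each within a list of its own length and show no change between libraries. In wildtype the nearest summit to Dll1 was 134 kb away.

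The Jagged ligand genes had no summit within 50 kb in any list. The nearest to Jag1 was 301 kb away with Nkx2-1 deletion, 1509 kb under ectopic Sox2 and 983 kb in wildtype. The nearest to Jag2 was 390 kb away with Nkx2-1 deletion, 2220 kb under ectopic Sox2 and 3279 kb in wildtype.

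Of the receptor genes, Notch2 alone had a summit within 50 kb, and in the ectopic Sox2 list alone. It lay 40.1 kb before the Notch2 start at chr3:97973375-97973574, with a fold of 6.25, a −log10 q of 3.73 and 13 fragments (6.92 to 22.2). The predicted gene Gm5544 was nearer to it. It is the summit farthest from its gene among those counted. With Nkx2-1 deletion a different summit lay 74.3 kb before the Notch2 start, just outside the window, with 24 fragments (15.4 to 35.7), a fold of 6.57 and a −log10 q of 5.51. Gm5544 spanned that summit. The nearest wildtype summit to Notch2 was 772 kb away.

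The nearest summit to Notch1, the founding receptor of the family, was 151 kb away with Nkx2-1 deletion, 939 kb under ectopic Sox2 and 1277 kb in wildtype. For Notch3 the distances were 374 kb with Nkx2-1 deletion, 4098 kb under ectopic Sox2 and 1007 kb in wildtype. The lists differ in length, as given above, and the part of list length in these distances was not tested.

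**Figure D2:**
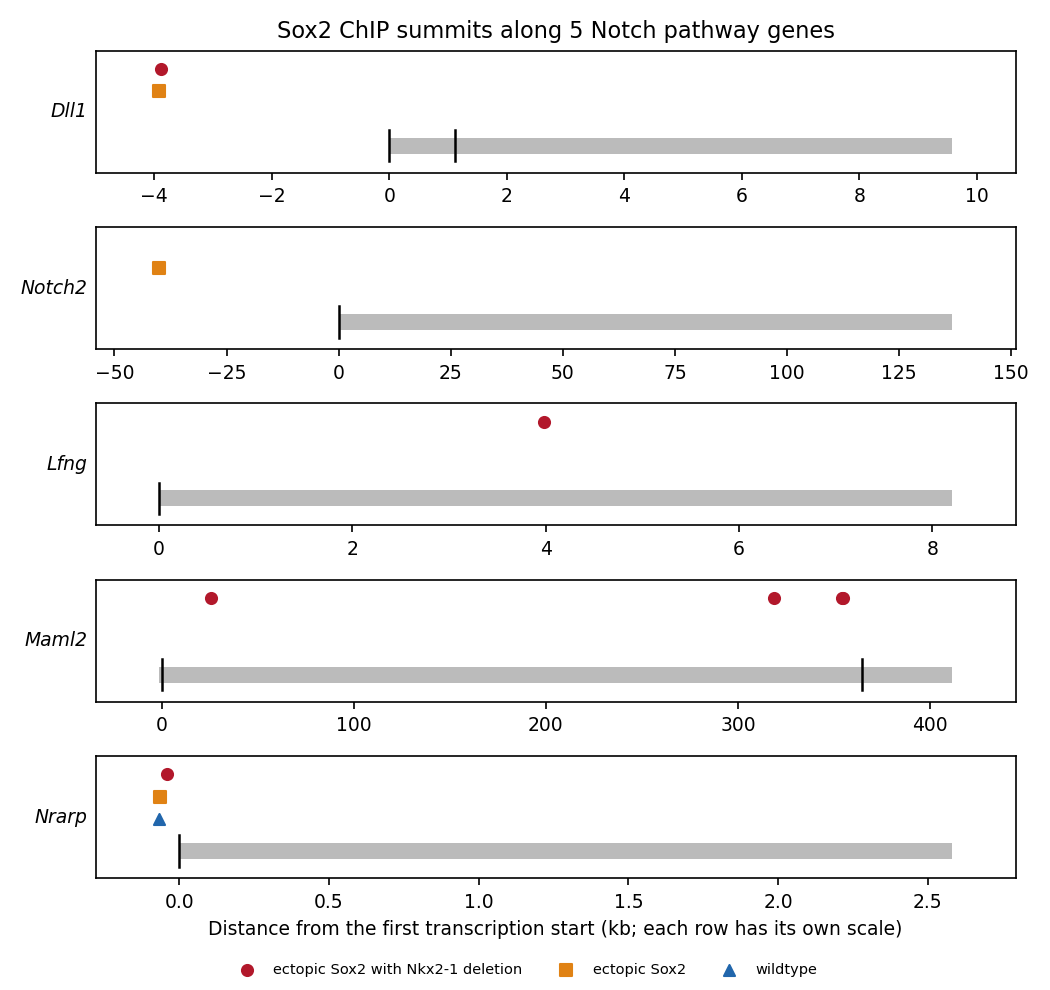
Positions of listed summits (symbols, by library) along 5 of the genes (grey bars), in kb from the first transcription start (black ticks mark starts), each row on its own scale. Summits lie before the start at Dll1, Notch2 and Nrarp and inside the gene at Lfng and Maml2, where Nkx2-1 deletion is the only library with symbols.

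Lfng encodes Lunatic fringe, a glycosyltransferase of the Golgi that adds sugar to Notch receptors and alters which ligands activate them. With Nkx2-1 deletion a summit lay inside the gene, 3981 bp after the start, at chr5:140611183-140611487. It had 67 fragments (51.9 to 85.1), the most of any member summit in that list, with a fold of 5.87 and a −log10 q of 10.4, rank 409 of 2589. The control background under it was 4.0, against a list median of 2.00, and by fold it ranked 1206 of 2589. The ectopic Sox2 list had no summit within 32.5 Mb of Lfng, and the wildtype list none within 1262 kb.

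Maml2 encodes a Mastermind-like co-activator that bridges the Notch and Rbpj complex to histone acetyltransferases. It is the longest member, at 413 kb, and held 4 summits with Nkx2-1 deletion, in 3 regions. The strongest by q lay 25.7 kb after the first start, at chr9:13323530-13323842, with 65 fragments (50.2 to 82.9), a fold of 5.70 and a −log10 q of 9.66. The control background under it was 4.0. The next lay 45.7 kb before the second start at chr9:13616611-13616940, with 47 fragments (34.5 to 62.5) and a fold of 6.97. The last region, at chr9:13652211-13652653, held 2 summits about 10 kb before the second start, with 27 fragments (17.8 to 39.3) and 25 fragments (16.2 to 36.9). The control background under the summit with 27 fragments was that list's genome-wide value, 0.615, against a list median of 2.00, so that its fold of 7.70 was the highest of the member summits with Nkx2-1 deletion while only 1 of them had fewer fragments.

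Chosen after its values were seen, the number of summits inside Maml2 was set beside other genes. Of all protein-coding genes, 19 (0.0868%) held at least 4 summits with Nkx2-1 deletion, and of the 497 genes within 1.5 times the length of Maml2, 7 (1.41%) did. The density was 0.969 summits per 100 kb in Maml2 and 0.120 over all protein-coding genes. Summits that share a region, as in the last Maml2 region above, were counted separately, and no count by region was made. The nearest summit to Maml2 was 865 kb away with ectopic Sox2 and 866 kb away in wildtype.

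Hes1 encodes the basic helix-loop-helix repressor through which Notch acts on many cell fate genes. With Nkx2-1 deletion a summit lay 12.0 kb outside the gene span, at chr16:30053273-30053527, and Hes1 was the only protein-coding gene within 50 kb of it. It had 49 fragments (36.3 to 64.8), a fold of 6.04 and a −log10 q of 7.69, rank 824 of 2589. The nearest summit was 5422 kb away with ectopic Sox2 and 3916 kb away in wildtype.

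At Nrarp, fragments for the depth sequenced were fewest with Nkx2-1 deletion and most in wildtype. The summit had 56 fragments (42.3 to 72.7) with Nkx2-1 deletion, at chr2:25180595-25180849. It had 42 (30.3 to 56.8) with ectopic Sox2, at chr2:25180585-25180813, and 69 (53.7 to 87.3) in wildtype, at chr2:25180534-25180854. Per unit of mean coverage these are 38.55 with Nkx2-1 deletion (29.1 to 50.1), 55.0 with ectopic Sox2 (39.7 to 74.4) and 71.6 in wildtype (55.7 to 90.6). The intervals of Nkx2-1 deletion and wildtype do not overlap, while that of ectopic Sox2 overlaps both.

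**Figure D3:**
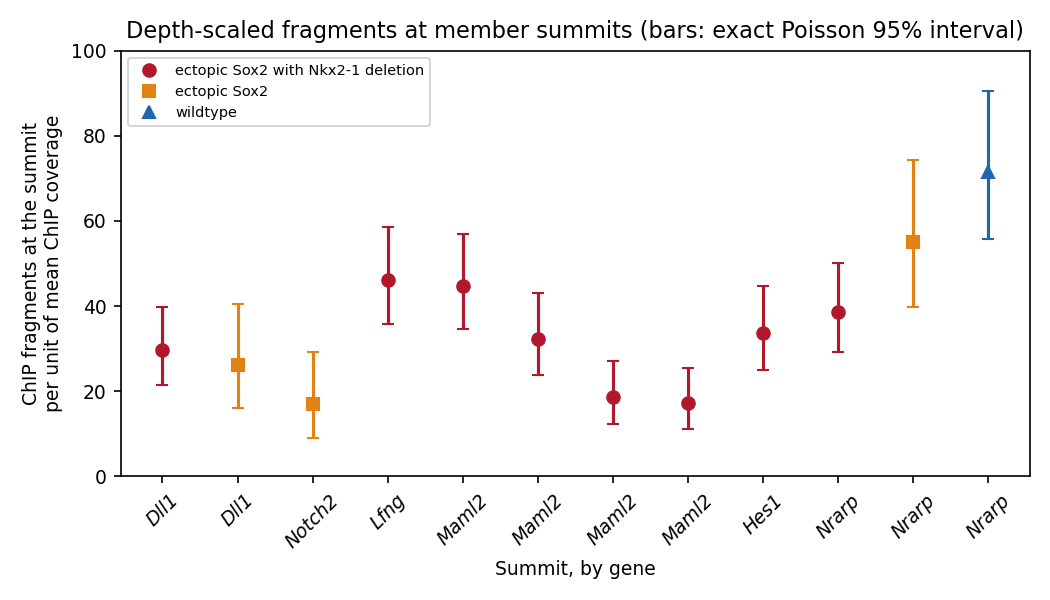
ChIP fragments at each member summit per unit of mean ChIP coverage (vertical), by gene and library, with exact Poisson 95% intervals as bars. The Nrarp summit reads 38.55 with Nkx2-1 deletion, 55.0 under ectopic Sox2 and 71.6 in wildtype, and the Dll1 intervals of the 2 libraries that list it overlap.

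By −log10 q the Nrarp summit ranked 502 of 2589 with Nkx2-1 deletion, at 9.60, 11 of 229 with ectopic Sox2, at 16.8, and 2 of 552 in wildtype, at 36.8. Its fold was 6.50 with Nkx2-1 deletion, 10.7 under ectopic Sox2 and 13.0 in wildtype. Ranks, −log10 q and fold are each within a list of its own length and depth and do not measure a change between libraries. The depth-scaled fragment ratio was 0.701 (0.461 to 1.07) for Nkx2-1 deletion over ectopic Sox2, 0.769 (0.511 to 1.14) for ectopic Sox2 over wildtype, and 0.538 (0.372 to 0.777) for Nkx2-1 deletion over wildtype. The last of these intervals leaves out 1. Nrarp is a member that was chosen with earlier results of these lists known. The control background at the summit was 4.55 times the genome-wide value with Nkx2-1 deletion, 3.29 times under ectopic Sox2 and 4.20 times in wildtype. With it subtracted, the ratio was 0.657 for Nkx2-1 deletion over ectopic Sox2, 0.768 for ectopic Sox2 over wildtype and 0.505 for Nkx2-1 deletion over wildtype. Of the protein-coding genes within 50 kb of the summit, Nrarp was the nearest.

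A summit in a promoter window was rare: 0.2% of protein-coding genes with a window had one with Nkx2-1 deletion, 0.166% under ectopic Sox2 and 0.0915% in wildtype. Of the 10 members, Nrarp was the only one, in each library.

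**Figure D4:**
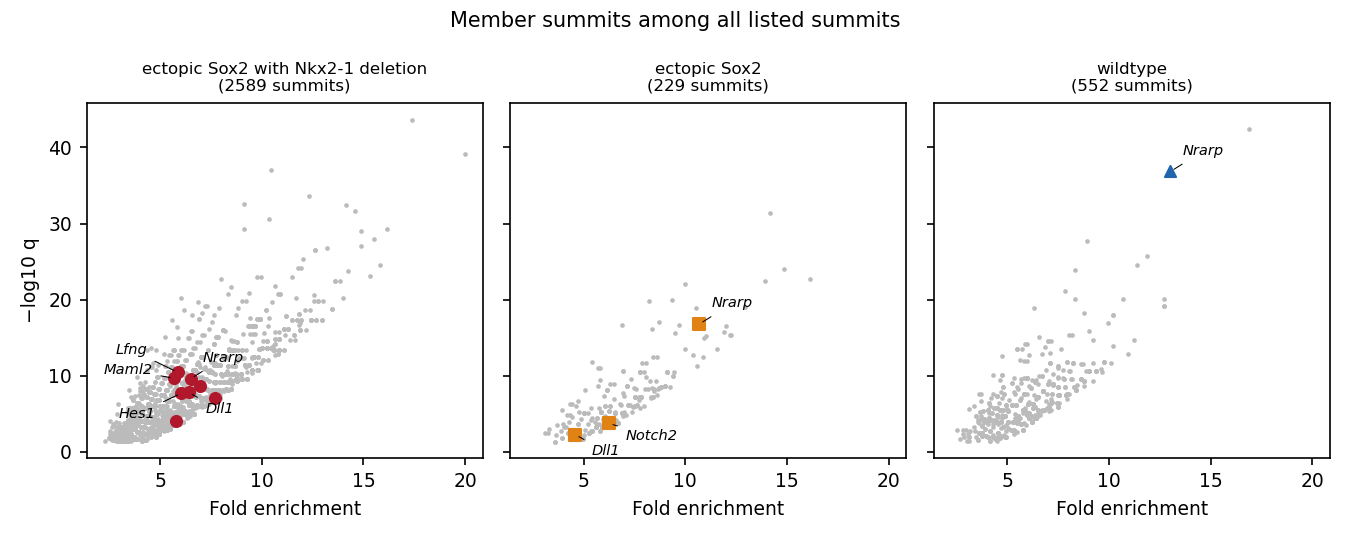
Fold enrichment (horizontal) and −log10 q (vertical), both the authors' values, for every listed summit (grey) and the member summits (coloured), in 1 panel per library. Nrarp ranks 2 of 552 by q in wildtype and 502 of 2589 with Nkx2-1 deletion, where it sits among Lfng, Maml2, Dll1 and Hes1. Each rank is within its own list and does not measure a change between libraries.

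The Nrarp region was 1 of 62 Nkx2-1 deletion regions that overlapped a region in both other lists. Over the 62, the median depth-scaled ratio was 1.32 for Nkx2-1 deletion over ectopic Sox2 and 1.25 for Nkx2-1 deletion over wildtype, and 0.954 for ectopic Sox2 over wildtype. Counted from the lowest, Nrarp ranked 5 of 62 for Nkx2-1 deletion over ectopic Sox2, 2 of 62 for Nkx2-1 deletion over wildtype and 13 of 62 for ectopic Sox2 over wildtype. By fragments per unit of coverage, counted from the highest, it ranked 42 of 62 with Nkx2-1 deletion, 8 of 62 with ectopic Sox2 and 2 of 62 in wildtype. Dividing by the shared median in place of depth alone put the ratio at 0.532 for Nkx2-1 deletion over ectopic Sox2, 0.430 for Nkx2-1 deletion over wildtype and 0.806 for ectopic Sox2 over wildtype.

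The regions with the most similar pair of ratios, by the distance between log2 ratios over the 3 libraries, were nearest to Usp24 (0.116), Lrmda (0.441), Marcks (0.455), Rcbtb2 (0.468) and Tbl1xr1 (0.530). Unlike the Nrarp region, all 5 lay well away from their nearest gene, at 27.7 kb for Rcbtb2 and between 102 and 413 kb for the others. At the Usp24 region the fragments were 35 with Nkx2-1 deletion, 27 under ectopic Sox2 and 40 in wildtype.

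**Figure D5:**
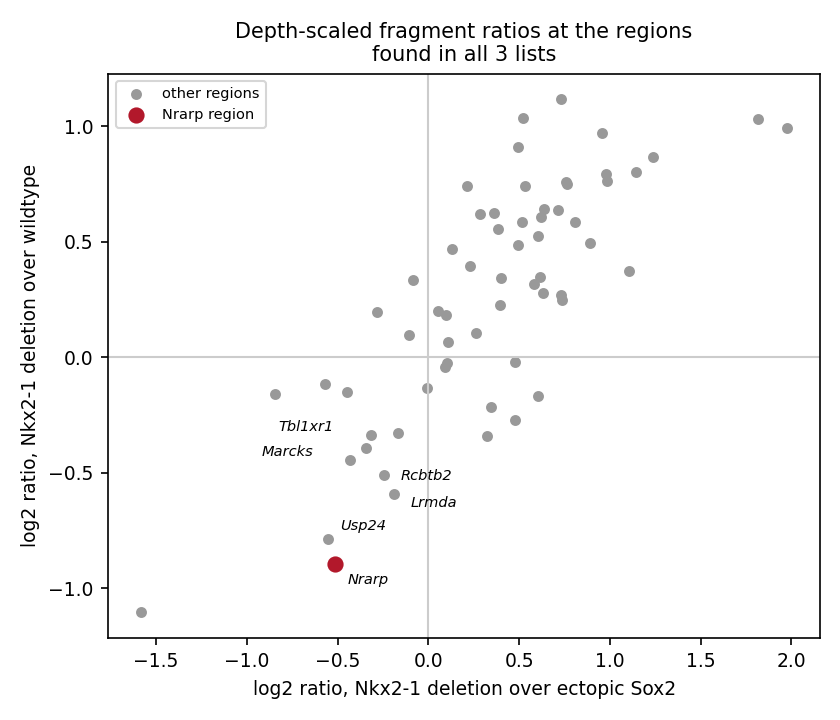
Depth-scaled fragment ratios on the log2 scale at the 62 regions found in all 3 lists: Nkx2-1 deletion over ectopic Sox2 (horizontal) and Nkx2-1 deletion over wildtype (vertical), with the Nrarp region in red and the 5 most similar regions named by nearest gene. Of the 62, 39 lie above 0 on both axes, whereas Nrarp lies at −0.51 and −0.89.

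For each member summit missing from another list, fragments and control background were scaled to the other library's depth and set beside the fewest fragments that reach its lowest listed −log10 p. These summits were taken because they were listed in the library where they are high, which favours high counts, so the values are a description and the part of depth in their absence was not tested. All 6 Nkx2-1 deletion summits with no region in the ectopic Sox2 list reached that level at its depth, 4 of them also at the lower bound of the counting interval. The share of all Nkx2-1 deletion summits missing from the ectopic Sox2 list that reach the level was not counted, nor that at the lower bound. Neither count is therefore read as a trait of the members. With only summits that reach the level kept, 11.9% of all protein-coding genes had one within 50 kb, against 13.1% for the full list. These gene shares include summits that have a region in the ectopic Sox2 list. Of the 2551 Nkx2-1 deletion regions, 62 overlapped a region in both other lists. Lfng scaled to 35.2 fragments where 22 were needed, Hes1 to 25.7 where 18 were needed, and the strongest Maml2 summit to 34.1 where 22 were needed. The weaker Maml2 summits with 27 and 25 fragments scaled to 14.2 and 13.1, where 10 and 11 were needed, and their lower bounds of 9.35 and 8.50 fell short.

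At the wildtype depth all 7 Nkx2-1 deletion summits with no wildtype region reached the level, 6 of them at the lower bound. The share of all Nkx2-1 deletion summits missing from the wildtype list that reach the level was not counted. Keeping only Nkx2-1 deletion summits that reach it left 13.0% of all protein-coding genes with one within 50 kb, against 13.1%. These gene shares include summits that have a wildtype region. Dll1 scaled to 28.5 fragments where 17 were needed, and from the ectopic Sox2 library to 25.3 where 18 were needed, with a lower bound of 15.4. The Notch2 summit of the ectopic Sox2 library scaled to 24.7 fragments at the Nkx2-1 deletion depth where 15 were needed, with a lower bound of 13.2, and to 16.4 at the wildtype depth where 10 were needed, with a lower bound of 8.74. Both lower bounds fell short of the fragments needed.

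The folds of the 8 member summits in the Nkx2-1 deletion list ran from 5.70 to 7.70 and their fragments ran from 25 to 67, with a median of 48, against a median of 38 over the list. Of the 8, 7 lay above the list's median fold of 5.73, 7 above its median −log10 q of 5.97 and 6 above its median fragments. Inside a gene lay 5 of the 8, 4 of them in Maml2, where 1239 of all 2589 summits of the list lay inside a protein-coding gene. With ectopic Sox2, Nrarp was above the list's median fold, q and fragments, and Dll1 and Notch2 were below all of these.

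The rest of the pathway was described by 48 further genes. With Nkx2-1 deletion 8 of the 48 (16.7%) had a summit within 50 kb, where 13.1% of all genes did. The ectopic Sox2 list had 2 (4.17%), against 1.53% of all genes, and the wildtype list 3 (6.25%), against 2.85%. The Nkx2-1 deletion share is near that of all genes, and within 10 kb it was 3 of 48 (6.25%) against 6.47%.

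With Nkx2-1 deletion, summits lay inside Maml3, the relative of Maml2, with 21 fragments (13.0 to 32.1), and inside Dner, which encodes a non-canonical ligand, with 62 fragments (47.5 to 79.5) over a control background of 10.0 and a fold of 2.48. A summit with 38 fragments (26.9 to 52.2) lay 14.3 kb from Rfng, the Radical fringe relative of Lfng, but nearer to Dus1l, Fasn and Gps1. Hes6, a Hes family gene, had summits with 74 fragments (58.1 to 92.9) at 10.2 kb, nearer to Ilkap, and with 24 fragments at 46.8 kb, nearer to Per2 and Traf3ip1. The summits counted for Psen2, a catalytic subunit of gamma-secretase, and for Ctbp1, a corepressor, had 25 and 48 fragments and were nearer to Itpkb and Spon2.

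Tle1, a Groucho-family corepressor that acts with Hes proteins, was the only gene of the 48 with a summit in all 3 lists, at 2 sites. A region inside the gene had 27 fragments (17.8 to 39.3) with Nkx2-1 deletion and 16 (9.15 to 26.0) in wildtype. Another, 33.1 kb before the start, had 22 fragments (13.8 to 33.3) under ectopic Sox2 and 22 in wildtype. Dtx2, a Deltex ubiquitin ligase gene, lay 48.7 kb from a region with 55 fragments (41.4 to 71.6) with Nkx2-1 deletion and 21 (13.0 to 32.1) in wildtype, with Ywhag, Zp3 and Ssc4d nearer. Hes3 lay 33.8 kb from a region with 46 fragments (33.7 to 61.4) with ectopic Sox2 and 35 (24.4 to 48.7) in wildtype, with Rpl22, Chd5, Icmt and Rnf207 nearer.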

How the data were processed

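The submitters' processing notes name Bowtie2 2.2.9, SAMtools 1.4, MACS2 2.1.1, HOMER 4.8.3 and the build mm10. The authors deposited the narrowPeak lists used here, 1 for each of the 3 Sox2 ChIP libraries, with a score, a fold ratio over the control background, and −log10 p and −log10 q for each summit. Neither the control behind each list, input or IgG, nor the calling threshold is stated in the labels. Every listed summit was used.

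ChIP fragments and control background were recovered from the deposited fold, (pileup + 1) / (background + 1), and the Poisson −log10 p, as whole multiples of 1 scale per library (tolerance 0.02). A single solution was found for 98.9% of Nkx2-1 deletion summits, 99.6% of ectopic Sox2 summits and 99.3% of wildtype summits, and for every member summit. Depth is the genome-wide background divided by the scale. Depth-scaled ratios have exact conditional binomial intervals and fragments exact Poisson intervals. The recovery was tested on simulated summits made with the same formula. These did not span the full range of the lists: the Notch2 summit with 13 fragments and the Dner background of 10.0 lay outside it.

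Genes came from RefSeq GRCm38.p6 and starts and strands from its promoter table, in which 9 of the 10 members matched. Overlap was counted with bedtools 2.31.1 at 1 bp, and intervals with scipy 1.17.1. Named genes were the 10 members, wider-list genes with a summit within 50 kb, genes nearer to a summit than its member, and those nearest to the 5 regions most like the Nrarp region. Members and lists were chosen with earlier results of these data known, and the depth-matched counts, the composite motif and the summit density in Maml2 were chosen after the values were seen.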

Additional observations from a re-analysis of the deposited data

How the results depend on the processing

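Of 55 alternative values for 13 results, 45 stayed within 1.5 times the count or within the counting interval of the ratio. Some of the 45 could not have moved. The paired summits were 4 to 37 bp apart, so requiring summits within 100 bp kept every ratio. The only wildtype member summit lay 68 bp from Nrarp, at −log10 q 36.8, which the 10 kb and q settings could not drop. None of the 4 fragment ratios left its interval, though that of Dll1 turned from above 1 to 0.858 when scaled by the shared-region median. Counts of members moved among summits with −log10 q of 5 or more, to 1 gene and 1 summit with ectopic Sox2 (Nrarp), and without regions found in all 3 lists, to 0 in wildtype. Of the 48 wider genes, the Nkx2-1 deletion list held 3 within 10 kb (6.25%, against 6.47% of all genes), 3 by nearest gene (6.25%, against 8.51%) and 4 among summits with −log10 q of 5 or more (8.33%, against 8.83%), all below the share of all genes. The ectopic Sox2 list held 0 within 10 kb (0.736% of all genes) and 1 by nearest gene (2.08%, against 1.02%), and the wildtype list 1 within 10 kb (2.08%, against 1.37%) and 1 by nearest gene (2.08%, against 2.19%). By nearest gene, Jag1 joined the Nkx2-1 deletion members through a summit 301 kb away. Keeping only Nkx2-1 deletion summits that would pass at the ectopic Sox2 depth, chosen after the data were seen, left 5 members and 6 wider genes (12.5%), against 11.9% of all genes. No paired analysis was possible because each condition has 1 library. The Dll1 ratio rests on 43 Nkx2-1 deletion and 20 ectopic Sox2 fragments, and its interval spans 0.650 to 2.03.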

Other observations

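Among genes with a summit in their promoter window, the octamer element ATGCAAA was in 2 of 35 with Nkx2-1 deletion (5.71%, exact Clopper-Pearson interval 0.700 to 19.2%), 4 of 29 with ectopic Sox2 (13.8%, 3.89 to 31.7%) and 4 of 16 in wildtype (25.0%, 7.27 to 52.4%). Over all protein-coding genes with a window the share was 4.83%. Nrarp, where the motif was read, is counted in each of these. Its match was fixed in advance, which raises the shares and is not allowed for in the intervals. Nrarp was the only one of these genes with the composite of a Sox and an octamer element. The ATTGT element alone was in 13 of 35 with Nkx2-1 deletion, 9 of 29 with ectopic Sox2 and 6 of 16 in wildtype, against 31.3% of all such genes. The libraries share genes and these motifs were chosen after the Nrarp promoter was read, so the shares are descriptions.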
